A study of Mus musculus with 2 samples.

Results

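Expression of 10 immediate early genes, Fos, Fosb, Fosl2, Jun, Junb, Egr1, Ier2, Nr4a1, Npas4 and Dusp1, was examined in MIN6 cells transduced with the FTO vector or with the empty vector. The genes were given as a list, and every probe whose RefSeq accession belongs to one of them was taken. This gave 11 probes of 10 genes, out of 39417 probes, of which 27224 could be named, for 20653 genes. Each gene had a single probe except Fosl2, which had 2, and the Fos probe is printed 10 times on each array. All 11 probes were well above background on both arrays, and none of their spots was saturated.

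MIN6 is a mouse insulinoma line of transgenic C57Bl/6 origin that secretes insulin when glucose rises. The cells were at passages 15 to 20 and were infected with lentivirus in the presence of polybrene. One condition carried mouse FTO with the green fluorescent protein ZsGreen (PLVX-IRES-ZsGreen-mFTO). The control carried the ZsGreen vector without FTO (PLVX-IRES-ZsGreen), so both conditions had been through infection, and fluorescence was looked at 48 h after transduction. The treatment label of the first condition reads FTP overexpression, whereas its title and vector name FTO. No acute stimulus with glucose or KCl is named for the arrays. There was 1 array per condition, so no p-value was computed, the number of arrays limits the precision, and a difference is that of 1 array against another.

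Immediate early genes are transcribed within minutes of a stimulus, from factors that already lie in the cell, and their transcripts decay quickly. In beta cells, glucose or depolarization lets calcium enter, and the calcium and cAMP kinases and the MAP kinases then act on CREB and on the serum response factor, which bind the promoters of these genes. Many of the products are transcription factors, among them the Fos and Jun proteins, which pair to form the AP-1 complex. Others, such as the phosphatase Dusp1, switch the MAP kinases off again.

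Promoter sequences are shown for some of the members. Jun, Junb and Nr4a1 were among the members furthest below 0 on the FTO-labelled array, while Fos and Dusp1 were nearer to 0. The sequences are the 250 bases before the gene start, 5′ to 3′ along the gene, from RefSeq in the build GRCm38.p6, and capitals mark the letters matched by the motifs named after them.
Fos (chr12:85473640-85473889, plus strand): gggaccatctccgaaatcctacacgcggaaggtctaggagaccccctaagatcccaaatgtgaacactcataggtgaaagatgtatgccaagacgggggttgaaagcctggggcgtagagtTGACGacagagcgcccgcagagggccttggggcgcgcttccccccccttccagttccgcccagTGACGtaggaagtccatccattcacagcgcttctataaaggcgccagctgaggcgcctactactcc
Dusp1 (chr17:26508473-26508722, minus strand): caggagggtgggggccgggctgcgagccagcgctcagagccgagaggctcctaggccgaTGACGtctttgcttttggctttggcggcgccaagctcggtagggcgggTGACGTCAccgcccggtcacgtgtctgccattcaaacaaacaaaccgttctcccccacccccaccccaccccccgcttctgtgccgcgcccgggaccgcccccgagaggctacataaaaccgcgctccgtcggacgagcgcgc
Jun (chr4:95052223-95052472, minus strand): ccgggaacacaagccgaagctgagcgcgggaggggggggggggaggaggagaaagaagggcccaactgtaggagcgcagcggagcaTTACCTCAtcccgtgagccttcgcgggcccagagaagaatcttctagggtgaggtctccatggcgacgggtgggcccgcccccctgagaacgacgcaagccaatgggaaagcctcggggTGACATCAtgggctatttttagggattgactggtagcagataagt
Junb (chr8:84978749-84978998, minus strand): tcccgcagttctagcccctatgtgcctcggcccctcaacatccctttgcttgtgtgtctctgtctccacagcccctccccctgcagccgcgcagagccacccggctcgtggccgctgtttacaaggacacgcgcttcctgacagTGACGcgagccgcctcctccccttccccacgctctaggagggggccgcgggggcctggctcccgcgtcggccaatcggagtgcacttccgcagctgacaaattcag
Nr4a1 (chr15:101266596-101266845, plus strand): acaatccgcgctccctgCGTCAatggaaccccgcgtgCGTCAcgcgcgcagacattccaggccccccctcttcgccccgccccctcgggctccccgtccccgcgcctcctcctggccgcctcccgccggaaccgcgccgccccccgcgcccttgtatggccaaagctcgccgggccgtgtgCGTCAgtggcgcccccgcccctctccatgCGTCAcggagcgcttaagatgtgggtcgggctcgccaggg

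The promoter table held 8 of the 10 members, without Egr1 and Ier2. On both strands, the core of the cAMP response element, TGACG, was found in 6 of the 8 (Fos, Fosb, Junb, Nr4a1, Npas4 and Dusp1), against 17.8% of 32851 promoters of the same length. Those promoters were not matched in base composition, and whether the members differ from them was not tested. The whole element TGACGTCA was found in Dusp1, against 1.55% of promoters, and it contains the core on each strand. The AP-1 site TGACTCA and the CArG box of the serum response factor were in none of the 8 windows, against 4.46% and 1.47% of promoters. Bases further upstream were not searched, so a site there would not be seen. Jun holds the 2 elements named after its own promoter, TGACATCA and TTACCTCA, which lie in 2.93% and 0.728% of all promoters. Fos holds the core at -129 and -66 from the gene start, and Dusp1 at -191, -143 and -140. Junb holds it at -106 and Nr4a1 at -233, -213, -69 and -40. None was found in Jun, nor in Fosl2, the highest of the members, whose promoter is not shown. The NBRE, the element bound by Nr4a1 itself, was in none of the 8, against 1.34% of promoters. A match of letters is a description and not a binding site.

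No immediate early gene differed 2-fold between the arrays, and most were slightly lower on the FTO-labelled array. After quantile normalization 9 of the 10 genes lay below 0 and 1 above (90.0% below), against 48.3% of the 18513 genes tested. The median log2 difference, FTO minus control, was -0.14 over the 10 genes and 0.0064 over all genes tested. The values ran from -0.44 for Junb to 0.06 for Fosl2. Past 2-fold lay 0 of 10, against 2.68% of all genes tested, and 0 of 10 were over 0.5 in size, against 8.9%.

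**Figure D1:**
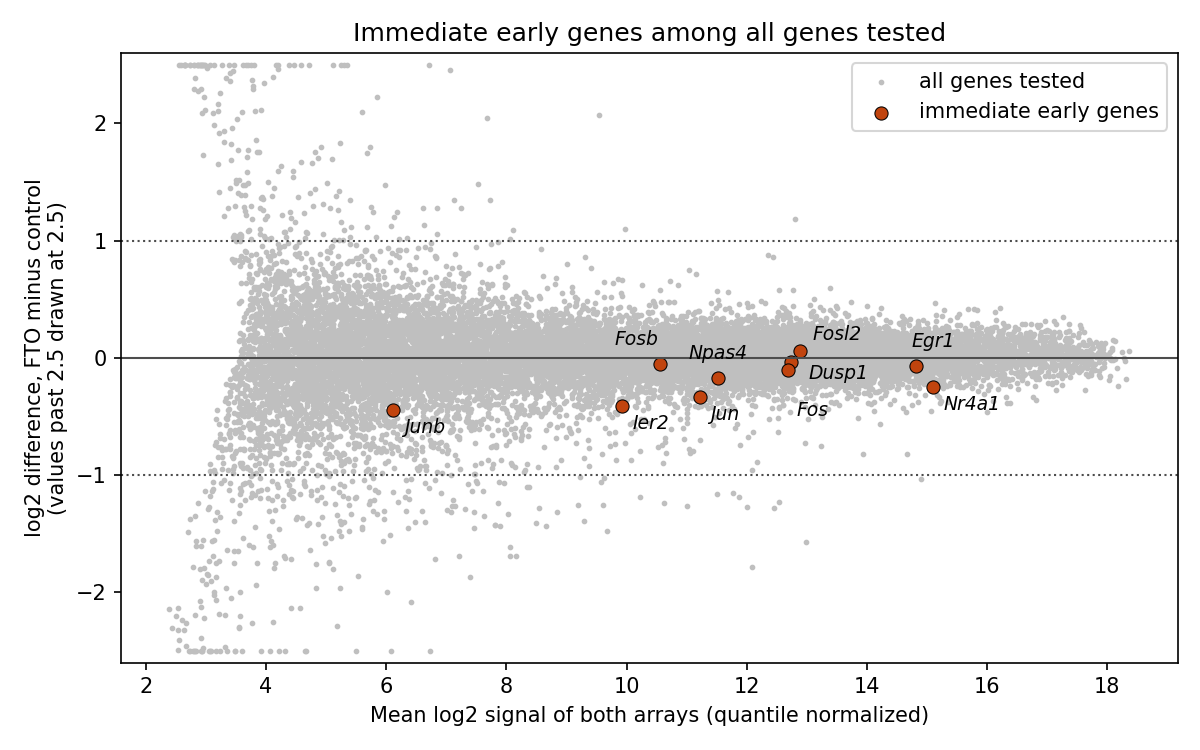
Log2 difference, FTO minus control, of each gene tested (grey) against its mean log2 signal over both arrays, with the immediate early genes in color. The 10 genes lie between -0.44 and 0.06, inside the 2-fold lines, and 9 of them lie below 0.

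Most members are bright, where the arrays differ little in general. For 8 of the 10 genes the mean log2 signal was over 10, and 7 of these were lower, with a median of -0.09. Among all 9991 genes that bright, 46.2% were lower, with a median of 0.01, while 0.13% were past 2-fold and 0.721% over 0.5 in size. The direction is relative to the array as a whole. Before normalization 8 of the 11 probes were brighter on the FTO-labelled array, by 1.04 to 1.41 times, and 3 were dimmer, but the median ratio was 1.27 over all tested probes and 1.33 over the bright ones. The median ratio of the 11 member probes was 1.18, and the bright Fosl2 probe, at 1.41, was the only one above the median of the bright probes.

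**Figure D2:**
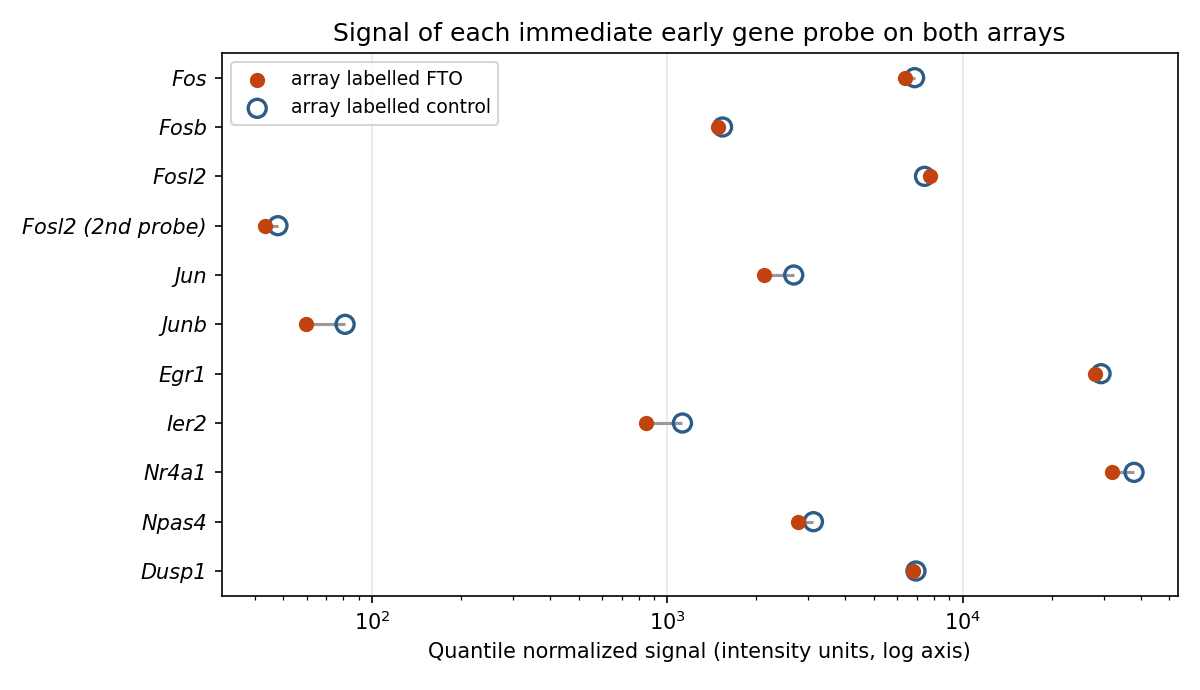
Quantile normalized signal (log axis) of each immediate early gene probe on the FTO-labelled array (filled) and on the control-labelled array (open), joined by a line. The filled point lies left of the open one for every probe except the brighter Fosl2 probe, and the lines are longest for Junb, Ier2 and Jun.

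As a measure of error, the error estimate that Feature Extraction gives for each spot was combined over both arrays, which is 0.20 on the log2 scale for a bright spot. The figure is nearly the same for every bright probe, so for these it acts as a fixed cut. For a repeated probe the errors of its spots were averaged, so the figure does not shrink with their number. It covers the measurement of spots and not the variation between cultures. By this measure 4 of the 10 genes were lower by more than their spot error (Junb, Ier2, Jun and Nr4a1), 0 were higher, and 6 were within it. Over all genes tested, 13.5% were lower and 14.3% higher by more than their spot error. Of the 8 bright members 2 were lower (Jun and Nr4a1) and 0 higher, against 6.07% and 7.63% of all genes that bright. The probes that are printed 10 times gave a smaller figure, with a median SD of the difference between matching spots of 0.06 for log2 signals over 10, 0.14 between 6 and 8, and 0.27 between 5 and 6.

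Among the Fos family, whose proteins pair with Jun proteins, the differences were small. Fos (NM_010234) had signals between 7132 and 7754, with a median of 7445, over the 9 spots used on the FTO-labelled array. On the control-labelled array its 10 spots lay between 5532 and 6122, with a median of 5968. The spots of the arrays did not overlap before normalization, and those of the FTO-labelled array were the brighter. Since the whole array was brighter by about the same factor, the log2 difference after normalization was -0.11. Over the 9 matching spots the log2 difference before normalization lay between 0.25 and 0.39. The shift that normalization gave the probe was then added, the same for every spot. After it the difference lay between -0.18 and -0.04, with a mean of -0.12, an SD of 0.04 and 0 of 9 spots above 0. The sign thus rests on that single shift and not on 9 separate measurements. These spots carry the same 2 RNA samples, so their spread is that of the array measurement and not that of cultures.

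**Figure D3:**
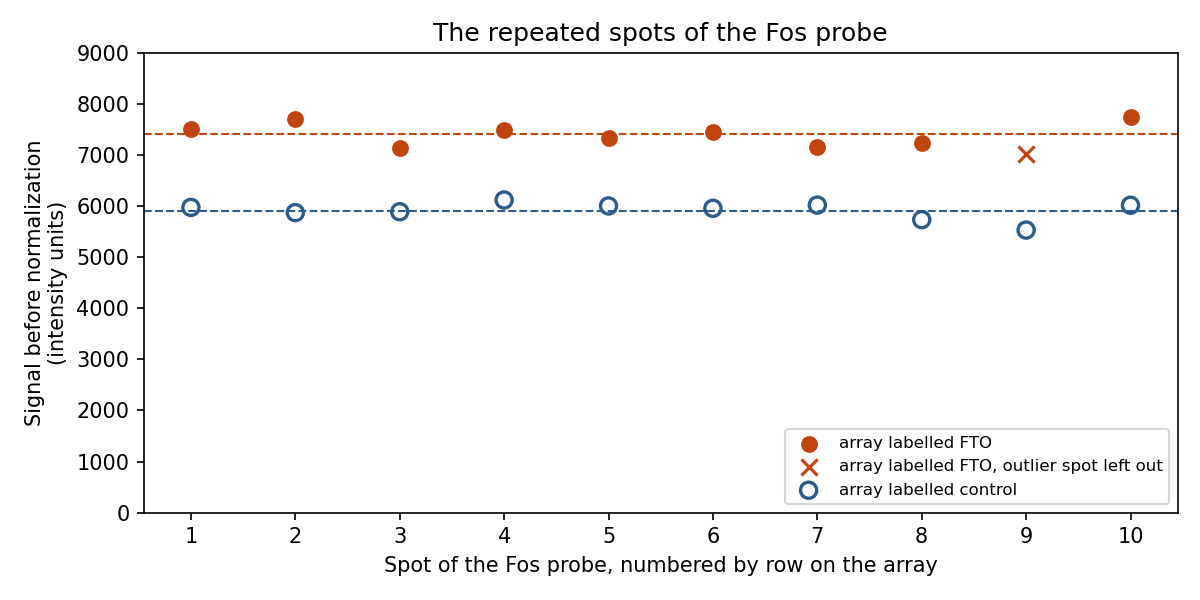
Signal before normalization of the spots of the Fos probe on the FTO-labelled array (filled) and on the control-labelled array (open), numbered by row, with dashed lines at the means of 7420 and 5914 and a cross for the spot left out as an outlier. The spots of each array lie close together, with a coefficient of variation of 3.02% and 2.87%.

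Fosb (NM_008036), the close relative of Fos, had signals of 1700 on the FTO-labelled array and 1341 on the control-labelled array before normalization. The normalized value was -0.05 on the log2 scale (spot error 0.20), within that error, as was that of Fos. Fosl2 (NM_008037), also known as Fra-2, was measured by 2 probes that differ greatly in brightness. The bright probe had signals of 8982 and 6389, and its value of 0.06 (spot error 0.20) was the only one above 0. The dim probe had signals of 45.0 and 46.1, about 3.4 times the local background, and gave -0.14 (spot error 0.23). The probes differed by 0.20, less than their combined spot error of 0.31, so they did not disagree beyond it, and both values lay within their spot error of 0. The sign of each was also not stable, at -0.03 for the bright and 0.02 for the dim probe after normexp background correction, and -0.46 for the dim probe after scaling by the 75th percentile.

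Both Jun genes among the members lay further below 0 than the Fos genes among them. Outside the members, Jund was at -0.23 and Fosl1 at -0.20, so the order does not extend to both families as a whole. Jun (NM_010591), the main partner of Fos in AP-1, had signals of 2428 on the FTO-labelled array and 2333 on the control-labelled array. That is a ratio of 1.04 on an array whose bright probes were 1.33 times brighter, and the log2 difference was -0.33 (spot error 0.20), or 1.26-fold lower. Under 5 ways of processing it lay between -0.38 and -0.33. The Jun difference was 6.00 times the SD of matching spots in repeated probes of the same brightness, a spread of spots and not of cultures. On that measure Ier2 was at 6.28, Nr4a1 at 4.44, Junb at 3.21 and Npas4 at 3.10, and the other members were lower. The Jun value was 0.23 below that of Fos. Junb (NM_008416), which pairs with Fos proteins but activates less than Jun, had signals of 62.7 and 76.3 and the lowest value of the 10, at -0.44 (spot error 0.23). This probe was dim, at 3.0 and 3.7 times the local background, and its value ran from -0.71 with scaling by the 75th percentile to -0.23 with normexp.

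The factors Egr1, Nr4a1 and Npas4 do not belong to AP-1. Egr1 (NM_007913), a zinc finger protein induced through the serum response factor, was bright, with signals of 32629 on the FTO-labelled array and 25243 on the control-labelled array. On the log2 scale it lay at -0.07 (spot error 0.20). Nr4a1 (NM_010444), an orphan nuclear receptor also called Nur77, had signals of 37338 and 32774 and lay at -0.25 on the log2 scale (spot error 0.20), or 1.19-fold lower. With cyclic loess the Nr4a1 value was -0.20 and no longer past its spot error, and over 5 ways of processing it lay between -0.28 and -0.20. Npas4 (NM_153553), a factor that responds to calcium entry on depolarization, had signals of 3190 and 2714. On the log2 scale it lay at -0.17 (spot error 0.20), between -0.20 and -0.16 under 5 ways of processing. Of these factors, only Nr4a1 was past its spot error, and all lay below 0 in each processing.

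The remaining members act outside DNA binding factors of these families. Dusp1 (NM_013642), the phosphatase that inactivates the MAP kinases p38, JNK and ERK, had signals of 7862 on the FTO-labelled array and 5966 on the control-labelled array. The normalized log2 value of -0.04 (spot error 0.20) was the nearest to 0 of all members. Ier2 (NM_010499), a nuclear protein of the early response to growth factors, had signals of 970 and 985 and lay at -0.41 on the log2 scale (spot error 0.20), or 1.33-fold lower. Its spot lies at row 301 and column 32, inside an area of the FTO-labelled array where spots of repeated probes of lower signal (log2 4.5 to 8) had lost signal. Its part in the Ier2 value was not tested. Without Ier2, 8 of the other 9 genes lay below 0 and their median was -0.11.

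**Figure D4:**
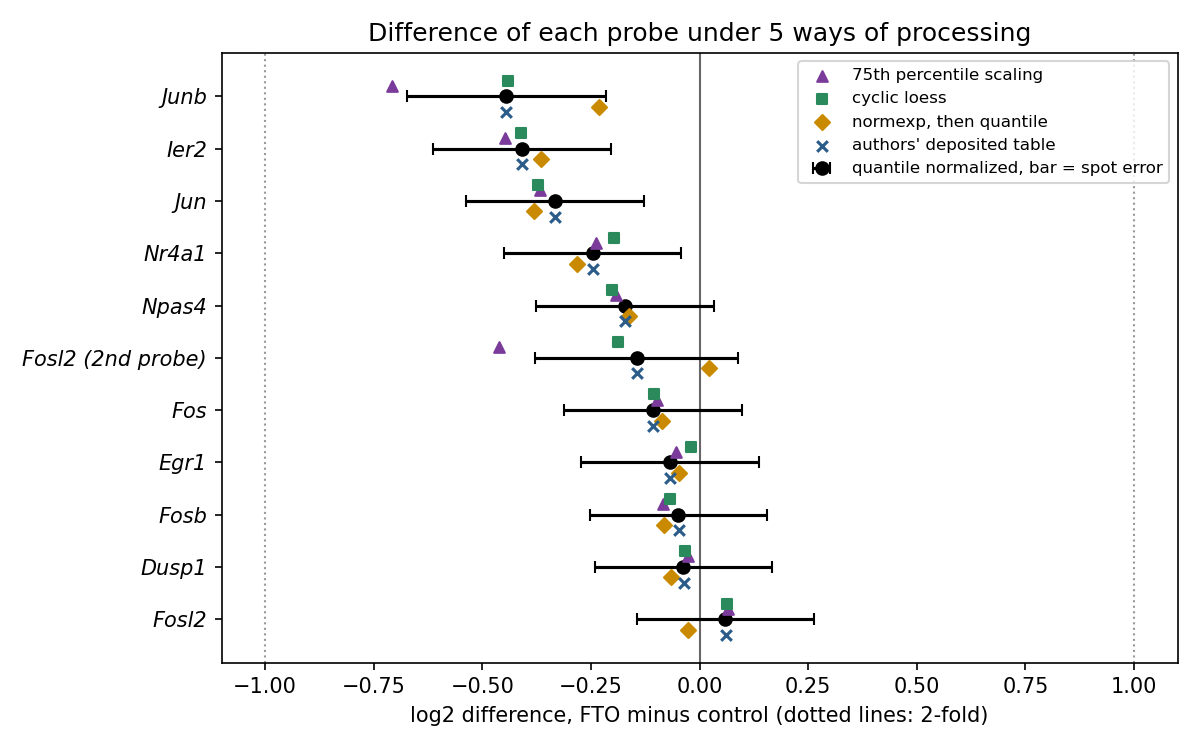
Log2 difference, FTO minus control, of each probe after quantile normalization (black points, with the spot error as bars) and under the other ways of processing (colored symbols). No symbol reaches the 2-fold lines at -1 and 1, and the symbols are furthest apart for the dim probes of Junb and Fosl2.

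From lowest to highest, the differences after quantile normalization ran Junb, Ier2, Jun, Nr4a1, Npas4, Fos, Egr1, Fosb, Dusp1 and Fosl2. The largest gap between neighbours was 0.10, between Dusp1 and Fosl2. Only 2 gaps were wider than the spread of repeated spots for both neighbours, the one between Jun and Nr4a1 and the one between Dusp1 and Fosl2. Both ends of the order moved with the processing. With normexp Jun was the lowest at -0.38 and Junb was at -0.23. With the mean of a gene's probes Dusp1 was the highest at -0.04. Probes hybridize with unequal strength, so the signals of different genes were not ranked. With 2 arrays a likeness of pattern between genes cannot be measured either, and no genes are named for it.

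Other genes of the same response were taken from lists (the plot of the related gene lists). Of 30 other immediate early genes 29 were tested, with a median of -0.13. Of these, 21 lay below 0 and 8 above (72.4% below), against 48.3% of all genes tested. Past 2-fold lay 0 of 29, against 2.68%. By more than their spot error 7 were lower and 3 higher, against 13.5% and 14.3% of all genes tested. The median log2 signals of the related lists lay between 10.1 and 13.1, so many of their genes are bright. Among all genes with a mean log2 signal over 10, those shares were 6.07% and 7.63%, and only 0.13% were past 2-fold. Where both arrays detected the probe, the lowest were Csrnp1, a nuclear factor induced by growth signals, at -0.42, Myc, the growth factor response oncogene, at -0.32, and Arc, a regulator of synaptic strength, at -0.32. Highest were Zfp36, which promotes the decay of AU-rich mRNAs, at 0.36, Ier5 at 0.25 and Crem, the cAMP response element modulator, at 0.21. The other probe of Ier5 gave -0.14, while the other 2 probes of Crem gave 0.13 and 0.24. With spots in the area of lost signal left out, 20 of 27 genes lay below 0 and the median was -0.15. These lists were chosen with earlier results of these arrays known, as were the members, and the median of all genes tested was 0.0064.

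Partners of AP-1 lay below 0 in 9 of 11 cases, against 48.3% of all genes tested, with a median of -0.20. Past 2-fold lay 0 of 11, against 2.68% of all genes tested. Atf3, a stress-induced factor that pairs with Jun proteins, had signals of 3321 on the FTO-labelled array and 3792 on the control-labelled array. A log2 value of -0.60 (spot error 0.20) was the lowest of the bright genes in these lists, and it lay between -0.63 and -0.60 in each normalization and with normexp. Jdp2 at -0.32 and Batf3 at -0.26 followed, and both spots lie in the area of lost signal. Without spots of that area 7 of 9 partners lay below 0 and the median was -0.05. The median over the 11 also moved with other settings, to -0.36 with scaling by the 75th percentile, -0.08 with normexp and -0.13 with outlier spots kept. Mafg was at 0.09, and its other 2 probes gave -0.11 and 0.0015. Atf2 was at -0.02 and, with cyclic loess, at 0.02, while its other 3 probes gave -0.22, 0.11 and -0.21, so the probes of both genes disagreed in sign.

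Feedback genes of the MAP kinases had 10 of 14 genes below 0, against 48.3% of all genes tested. Their median was -0.05, and -0.03 with normexp. Spry2, an inhibitor of receptor tyrosine kinase signalling, had the lowest value at -0.86 (spot error 0.25), from signals of 31.2 on the FTO-labelled array and 52.9 on the control-labelled array. Its spot lies in the area of lost signal, and the value ran from -1.18, past 2-fold, with scaling by the 75th percentile to -0.29 with normexp. Dusp8 was at -0.40, but its other probe gave -0.06, and Dusp6 was at -0.21. Spry4 at 0.24 and Dusp10 at 0.21 were the highest, and Spred1, also in that area, was at 0.03 and at -0.04 with normexp. None of the 14 passed 2-fold after quantile normalization, against 2.68% of all genes tested, and values of both signs stood in this list.

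**Figure D5:**
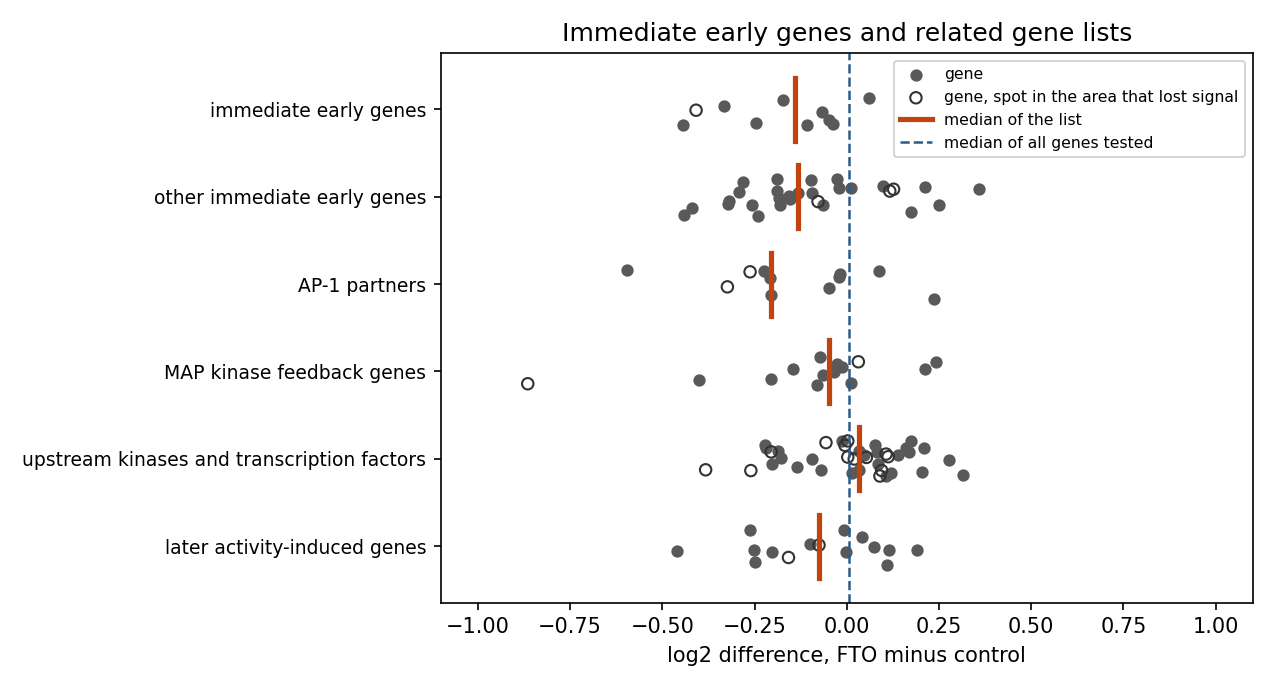
Log2 difference, FTO minus control, of each tested gene in the immediate early genes and the related lists, with the median of each list (orange) and of all genes tested (dashed). Open circles are genes whose spot lies in the area that lost signal. The list medians are -0.14 for the immediate early genes, -0.13, -0.20, -0.05, 0.03 and -0.08 from top to bottom, and Spry2 at -0.86 stands furthest left.

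Upstream of the immediate early genes, 14 of 39 kinases and transcription factors lay below 0 (35.9%, against 48.3% of all genes tested), with a median of 0.03. That median was 0.05 with cyclic loess or without spots in the area of lost signal, and 0.0045 with the mean of each gene's probes. The coactivator Ep300 was the highest at 0.32, followed by the calcium-dependent kinase Camk4 at 0.28 and the calcineurin subunit Ppp3cb at 0.21. The other 2 probes of Camk4 gave 0.38 and 0.02. The lowest were the calcium-regulated factors Mef2c at -0.38, Mef2a at -0.26 and Mef2d at -0.22. Mef2c was dim, with signals of 23.1 on the FTO-labelled array and 28.7 on the control-labelled array (spot error 0.30). Its value ran from -0.74 with scaling by the 75th percentile to -0.10 with normexp. The spots of Mef2c and Mef2a lie in the area of lost signal, and a second Mef2a probe gave 0.27, while a second Mef2d probe gave -0.25. For CREB and the serum response factor themselves, Creb1 was at 0.05 by its brighter probe and at 0.33 by the other. Srf, whose brighter spot also lies in that area, was at -0.06, and at 0.06 by its other probe. Whether the lists differ from one another was not tested.

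Genes that follow later after activity had 10 of 15 below 0, against 48.3% of all genes tested, with a median of -0.08. Past 2-fold lay 0 of 15, against 2.68% of all genes tested. The lowest were Inhba, an activin subunit, at -0.46, the cell cycle inhibitor Cdkn1a at -0.26 and the neurotrophin Bdnf at -0.25. A second probe of Cdkn1a gave -0.25. Nrn1 at 0.19, Tiparp at 0.11 and Nptx2 at 0.11 were the highest, and Nrn1 was at -0.04 with scaling by the 75th percentile. Second probes gave 0.05 for Tiparp and 0.12 for Nptx2. The median of this list was -0.0062 without spots in the area of lost signal, -0.12 with cyclic loess and -0.19 with scaling by the 75th percentile.

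Facts of the arrays as a whole bear on these values. The share of probes detected well above background was 82.0% with FTO and 84.9% with the control, and the median signal was 292 and 237. Fto itself had signals of 7301 and 5179 and differed by 0.06 on the log2 scale, within its spot error of 0.20. Higher Fto in the FTO condition was thus not seen beyond that error, and each direction given here rests on the labels. The paper reports FTO overexpression in MIN6 cells at the protein level, by Western blot. Whether the Fto probe covers the sequence carried by the vector was not examined. All 10 beta cell markers, among them Ins1, Ins2 and Iapp, were well above background on both arrays and within 2-fold, as was Gcg, a marker of alpha cells. Of the beta cell markers 7 lay below 0 and 3 above, against 48.3% of all genes tested below 0. Their median was -0.08, and the values ran from -0.24 for Ins2 to 0.45 for Slc2a2. Medians of the markers of alpha and delta, exocrine, fibroblast, leukocyte and endothelial cells lay between -0.28 and 0.05. In a bulk culture, fewer cells that express a gene and less RNA per cell cannot be told apart.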

How the data were processed

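MIN6 cells transduced with FTO or empty lentivirus were profiled on one-color Agilent arrays, 1 array per condition, grouped by the sample labels. The authors deposited the intensity of each spot from Feature Extraction 11.0.1.1 (background subtracted, detrended, not normalized between arrays) and a table of log2 values of 33870 probes, which the authors had quantile normalized in GeneSpring GX. The deposited flags take other values (0 or 1).

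Spots with an outlier flag (148 on the FTO-labelled array, 141 on the control-labelled array) were left out. Log2 values were averaged per probe, and limma 3.58.1 (R 4.3.3) gave the quantile normalization. Python 3.11.15, pandas 2.3.3, numpy 2.4.6 and matplotlib 3.10.9 did the rest. Testing required detection well above background on 1 array or both (for repeated probes, in at least 50% of spots), and a gene took its brightest tested probe. Past 2-fold means a log2 difference over 1 or under -1. Accessions were named by the NCBI annotation of GRCm38.p6. Blocks measured 76 rows by 17 columns, and the area of lost signal is the 5 blocks of the FTO-labelled array and 1 of the control-labelled array where at least 15% of spots of 78 repeated probes lay more than 0.5 below their probe's median. Only probes printed once were counted in it. The normalization and the 2-fold call were tested on simulated data, in which every changed probe was changed past 2-fold. The simulated array was brighter by the same factor at every signal. Differences as small as those of the members were not simulated, so that test does not cover them.

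Members and lists were chosen with earlier results of these data known. In each related list, the genes named are those past 2-fold and the 3 highest and 3 lowest whose probe both arrays detected, except 1 gene that is not reported here. Jund, Fosl1, Creb1, Srf and the markers were named after their values had been seen. Alternatives were scaling by the 75th percentile, cyclic loess, normexp (offset 50, on median intensities), the authors' table, other background filters, the mean of a gene's probes, a floor for dim signals and leaving out the area of lost signal. Keeping outlier spots, and the same alternatives for the related lists, were added after seeing the data.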

Additional observations from a re-analysis of the deposited data

How the results depend on the processing

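None of the 10 alternatives brought an immediate early gene past 2-fold. The number of members below 0 was 9 or 10 of 10, or 8 of 9 without the area of lost signal. The median log2 difference of the members ran from -0.15 with cyclic loess to -0.11 without that area. With scaling by the 75th percentile the background moved too. There 61.2% of all genes tested lay below 0, against 48.3% after quantile normalization, and their median was -0.06. The median of the members minus that of all genes was then -0.09, against -0.15 after quantile normalization. Of 99 values of single genes under the alternatives, 95 moved by less than the spread of repeated spots. The other 4 were Junb at -0.71 with scaling by the 75th percentile and -0.23 with normexp, and Fosl2 at -0.03 with normexp and at -0.04 with the mean of its probes, where it changed sign. The cause was not tested. No paired analysis was possible because each condition has 1 array. Among the members, signals near background limit Junb and the second Fosl2 probe, and no value has a check between cultures.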
